A study of Mus musculus with 8 samples.

Results

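The genes described here encode the MHC class II antigen presentation pathway of the mouse. They were chosen by name, with earlier results of these data already known. The 9 genes are the classical chains *H2-Aa*, *H2-Ab1* and *H2-Eb1*, the peptide editor *H2-DMa* and *H2-DMb1*, its modulator *H2-Oa* and *H2-Ob*, the invariant chain *Cd74* and the class II transactivator *Ciita*. Of these, 8 were matched by accession to a row among the 24625 rows of the deposited table. No row was matched to *H2-DMb1*, which says nothing of its level, since not all rows could be named. The samples were lung neutrophils of wild type (WT) mice aged 6 to 12 weeks by the labels, while the methods give a narrower range. The left lung was instilled by the intratracheal route with PBS alone or with S. pneumoniae suspended in PBS (SP), and the volume was 2.3 µl for each g of mouse. Cells were taken 24 h later from lung digests with anti-Ly6G and magnetic beads. There were 4 PBS and 4 SP samples, each hybridised to 1 Affymetrix Mouse Gene 1.1 ST array. Both groups were anesthetized, instilled and sorted alike, and the methods describe a colony derived from C57BL/6J mice. The methods assessed purity on stained cells from pneumonia samples, in which the few other cells mostly looked like alveolar macrophages. Nothing in the labels ties a sample to a separate animal or culture, so the p-values measure only the spread between these samples.

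MHC class II molecules are αβ dimers that carry peptides from the endosomal pathway to the cell surface, where CD4+ T cells read them. The invariant chain CD74 fills the groove of new dimers and guides them to endosomes, proteases such as cathepsin S trim it, and H2-DM exchanges its remnant CLIP for peptide. H2-O holds H2-DM back and is best known from B cells. CIITA is recruited by factors bound to the X and Y boxes of class II promoters and is induced by interferon gamma through its receptor and JAK kinases. Professional presenting cells are dendritic cells, macrophages and B cells. Neutrophils are usually described as low in class II, with some acquiring it under inflammation. C57BL/6 mice lack a functional *H2-Ea* gene, so *H2-Eb1* is transcribed without an I-E partner chain at the surface.

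The X and Y boxes were searched for in the promoters held by RefSeq (build GRCm38.p6, 250 bases before to 50 after a start). Windows of 120 bases, positions -150 to -31, are shown for 2 classical chains, whose values were alike over the arrays, and for both chains of H2-O, whose values were not. All are written 5′ to 3′ along the gene. Capitals mark the X box (ACNGATG), a short X box (AGNNACNG), its core (AGCAAC) and the Y box (GATTGG) on the gene's strand. These motifs overlap one another at the X box. The core was added after the sequences were read.
H2-Aa, chr17:34287854-34287973, minus strand: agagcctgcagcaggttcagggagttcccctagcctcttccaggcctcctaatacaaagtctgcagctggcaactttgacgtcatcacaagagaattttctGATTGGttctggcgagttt
H2-Eb1, chr17:34305717-34305836, plus strand: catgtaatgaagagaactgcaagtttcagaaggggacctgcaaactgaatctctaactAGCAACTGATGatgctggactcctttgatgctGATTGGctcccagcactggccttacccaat
H2-Oa, chr17:34092229-34092348, plus strand: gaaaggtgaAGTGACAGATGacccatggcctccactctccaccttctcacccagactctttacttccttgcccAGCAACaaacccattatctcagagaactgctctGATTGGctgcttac
H2-Ob, chr17:34238755-34238874, plus strand: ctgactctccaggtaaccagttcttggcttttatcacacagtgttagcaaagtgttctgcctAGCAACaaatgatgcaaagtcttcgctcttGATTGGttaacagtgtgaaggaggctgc

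Each of the 4 windows holds a Y box, which starts at -49 in *H2-Aa*, -60 in *H2-Eb1*, -44 in *H2-Oa* and -58 in *H2-Ob*. The Y box letters occurred, on either strand, in 16.1% of the 32851 promoters of the same length. The core AGCAAC lies upstream of it in *H2-Eb1* (-92), *H2-Oa* (-77) and *H2-Ob* (-88), and occurred in 14.8% of all promoters. The window of *H2-Aa* has no exact match to the core, which does not show that it lacks an X box. The X box letters occurred in 9.85% of promoters and the short X box in 50.9%. A short X box followed by a Y box at a gap of 12 to 30 bases was found in 0.384% of promoters, among them those of *H2-Eb1* and *H2-DMb1*. An interferon gamma activated site (TTCNNNGAA) was in 8.30% of promoters and an interferon-stimulated response element (GAAANNGAA) in 8.56%, and neither was in the promoters of these 4 genes. A match here is a description of letters in these windows. *H2-Ab1*, *Cd74* and *Ciita* are not in the promoter table.

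Values are log2 of the array signal after robust multi-array averaging (RMA), where 1 unit is a 2-fold difference. Differences are SP minus PBS from limma, and a row is called when its p, adjusted over all rows by the Benjamini-Hochberg method, is at most 0.05. Array medians ran from 6.06 to 6.20 in PBS and from 5.78 to 5.91 in SP. The median difference of all rows was 0.10, and it became 0.38 when each array was centred on its own median and 0.02 after a further quantile normalization. Centring also lowered the share of called rows that were lower in SP from 51.1% to 22.1%. The neutrophil markers were bright in both groups. Their list (10 of 11 genes matched to a row, all but *Ly6g*) had a mean level of 12.76 to 12.91 in PBS and 12.09 to 13.03 in SP, and 3 genes were called lower, none by 2-fold. Without SP replicate 3, described next, 8 were called lower, 2 of them by 2-fold. Markers of alveolar type 2 cells and endothelium were also well above the array medians. Those of alveolar type 2 cells averaged 11.61 to 12.15 in PBS and 9.90 to 11.18 in SP, and those of endothelium 10.40 to 11.40 and 8.42 to 9.76.

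SP replicate 3 stood apart from the other SP arrays. It received a weight of 0.20 in an array-weight fit, against 0.46 to 2.69 for the other arrays. Its granule genes *Ngp* (13.34) and *Ltf* (12.10) were the highest of any array, while its complement genes *C1qa* (7.08), *C1qb* (8.50) and *C1qc* (6.25), markers of macrophages, were the lowest. The differences of the 8 class II genes are therefore also given without it.

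Among the 8 class II genes measured, *H2-Ob* was called lower in SP and the other 7 were not called. Over all rows, 22.6% were called lower, 11.3% lower by at least 2-fold, 21.5% higher and 6.37% higher by at least 2-fold. The median difference of the 8 genes was -0.33, and 0.04 without SP replicate 3. Without that array *H2-Oa* was called higher as well, which made 2 calls of 8. In bulk samples such as these, fewer cells of a type and less RNA per cell cannot be told apart.

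**Figure D1:**
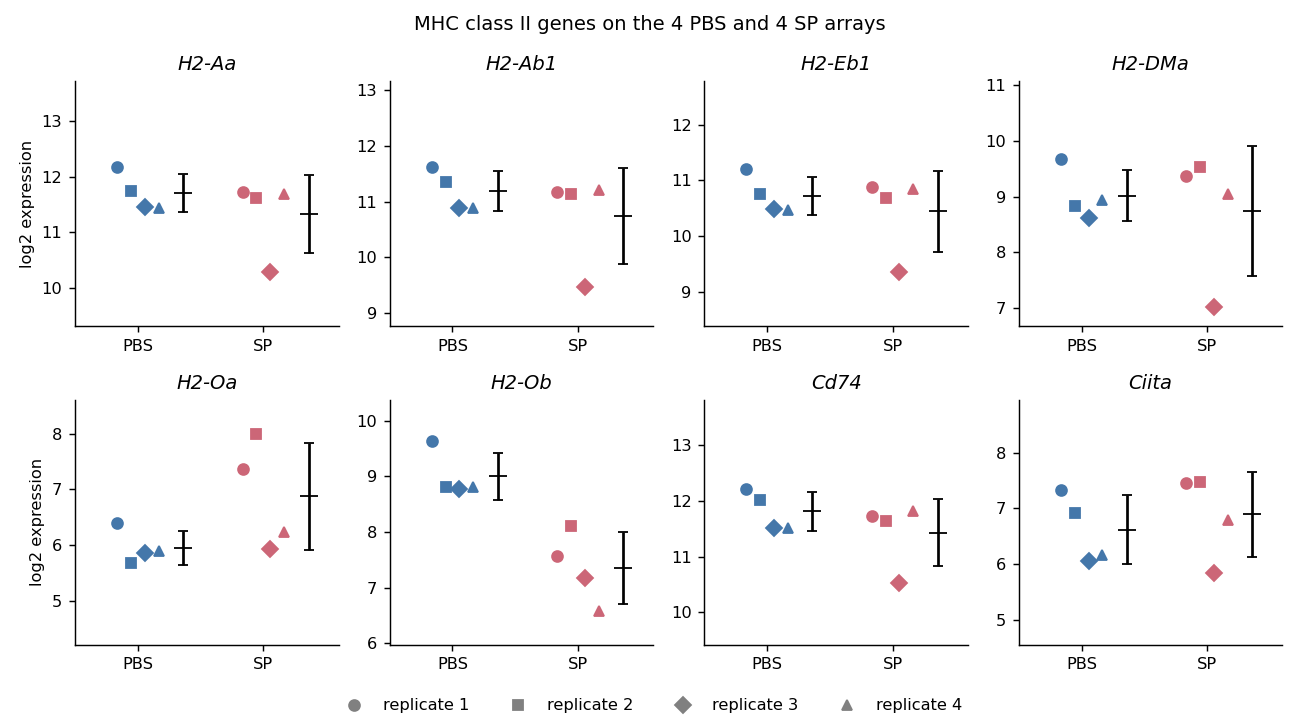
Log2 expression (y axis) of the 8 measured MHC class II genes on each PBS (blue) and SP (red) array, with marker shape giving the replicate number and the black bar giving mean ± SD (n = 4). Each panel spans the same range of log2 units. SP replicate 3 (diamond) lies below the other SP arrays for every gene except *H2-Ob*, the gene whose PBS and SP values do not overlap.

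The classical chains form the peptide-binding dimers I-A (*H2-Aa* with *H2-Ab1*) and, in strains that have it, I-E. *H2-Ab1* read 11.62, 11.35, 10.88 and 10.89 on PBS replicates 1 to 4 and 11.17, 11.14, 9.46 and 11.21 on SP replicates 1 to 4. Apart from replicate 3, the SP values lay inside the PBS range. The difference was -0.44 (SE 0.40, 95% interval -1.36 to 0.48, limma adjusted p = 0.370). Without SP replicate 3 it was -0.01 (adjusted p = 0.969).

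*H2-Aa*, its α chain partner, read 12.18, 11.74, 11.45 and 11.44 in PBS and 11.73, 11.63, 10.29 and 11.69 in SP. The pattern over the arrays was the one seen for *H2-Ab1*, with the groups overlapping and SP replicate 3 low. The difference was -0.37 (SE 0.34, 95% interval -1.14 to 0.40, limma adjusted p = 0.366), and -0.02 without SP replicate 3. *H2-Eb1*, the I-E β chain, read 11.20, 10.75, 10.48 and 10.47 in PBS and 10.89, 10.69, 9.36 and 10.84 in SP. Its difference was -0.28 (SE 0.35, 95% interval -1.07 to 0.51, limma adjusted p = 0.505), and it changed sign to 0.08 without SP replicate 3 and to 0.0015 after centring the arrays. For all 3 chains the intervals allow a fall of more than 2-fold as well as a rise of less than 2-fold.

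*Cd74* encodes the invariant chain, which also serves at the cell surface as a receptor for MIF. It read 12.20, 12.01, 11.51 and 11.51 in PBS and 11.72, 11.64, 10.53 and 11.82 in SP. Again the groups overlapped and SP replicate 3 was lowest. The difference was -0.38 (SE 0.30, 95% interval -1.07 to 0.31, limma adjusted p = 0.307), and -0.08 without that array (adjusted p = 0.725). *Cd74* followed *H2-Ab1* closely. It lay 0.63 ± 0.03 above *H2-Ab1* on the PBS arrays and 0.68 ± 0.26 above it on the SP arrays (SD, n = 4), a change of 0.06 (exact permutation test over 70 arrangements, two-sided, p = 0.971).

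H2-DM releases CLIP and selects stable peptides. *H2-DMa*, its α chain, read 9.67, 8.84, 8.61 and 8.94 in PBS and 9.36, 9.54, 7.01 and 9.04 in SP. Here SP replicate 3 was 2.30 below the mean of the other SP arrays, the widest such gap among the 8 genes, while the other SP replicates were above all PBS arrays but the first. The difference was -0.27 (SE 0.54, limma adjusted p = 0.676), and it changed sign to 0.30 without that array (adjusted p = 0.348) and to 0.0067 after centring. *H2-DMb2*, a close copy of the unmeasured *H2-DMb1* from which array probes may not separate it, read 9.55, 9.21, 8.69 and 8.79 in PBS and 8.86, 8.88, 7.55 and 8.54 in SP. It was not called (difference -0.60, adjusted p = 0.148), and the difference was -0.30 without SP replicate 3. *H2-Eb2*, another β chain gene of the region, was not called either (difference -0.11, adjusted p = 0.753, and -0.07 without that array).

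*Ciita*, the transactivator that the classical chains, *Cd74* and H2-DM depend on in presenting cells, read 7.33, 6.92, 6.05 and 6.17 in PBS and 7.45, 7.47, 5.84 and 6.80 in SP. It varied over more than 1 log2 unit within each group, and the groups overlapped. The difference was 0.27 (SE 0.42, 95% interval -0.69 to 1.23, limma adjusted p = 0.596), and 0.62 without SP replicate 3 (adjusted p = 0.173). Relative to *H2-Ab1* on the same array, *Ciita* was 0.71 higher in SP than in PBS, and 0.63 higher without SP replicate 3. That shift had an exact permutation p of 0.0571, or 0.114 adjusted over the 4 such comparisons planned, in a design whose smallest possible p was 0.0286.

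The chains of H2-O pair with each other to restrain H2-DM, and the β chain gene alone was called. *H2-Ob*, the β chain, read 9.64, 8.81, 8.77 and 8.81 in PBS and 7.56, 8.11, 7.17 and 6.58 in SP. Every SP value was below every PBS value, as was true in either direction for 49% of all rows. Its mean fell from 9.01 ± 0.42 to 7.36 ± 0.64 (SD, n = 4), which is 3.14-fold lower (log2 difference -1.65, SE 0.33, 95% interval -2.41 to -0.89, limma adjusted p = 0.00463). Without SP replicate 3 the difference was -1.59 (adjusted p = 0.0126). Leaving out any 1 array kept the call, with differences from -1.90 to -1.39. A test against a 2-fold threshold did not call it (limma treat, adjusted p = 0.416).

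*H2-Oa*, the α chain, read 6.39, 5.67, 5.85 and 5.89 in PBS and 7.36, 7.98, 5.92 and 6.23 in SP. Replicates 1 and 2 of SP were above all PBS arrays, while replicates 3 and 4 were within the PBS range. The difference was 0.93 (SE 0.43, 95% interval -0.07 to 1.92, limma adjusted p = 0.110). It was called higher without SP replicate 3 (1.24, adjusted p = 0.0368), with array weights (1.31, adjusted p = 0.00766), after centring the arrays (1.21, adjusted p = 0.0222) and after quantile normalization again (1.19, adjusted p = 0.045). On the log2 scale *H2-Oa* minus *H2-Ob* went from -3.06 ± 0.17 on the PBS arrays to -0.48 ± 0.52 on the SP arrays (SD, n = 4). This shift of 2.58 had the smallest p the design allows (exact permutation test, p = 0.0286), and the pair was chosen for this test after its values were seen. The shift was 2.83 without SP replicate 3.

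The fall of *H2-Ob* ran beside that of B cell markers. Of 10 B cell genes, 8 were called lower, 7 of them by at least 2-fold, and the list's mean level was 7.30 to 8.11 in PBS and 5.99 to 6.93 in SP. Its median difference was -1.34, against 0.10 for all rows, of which 22.6% were called lower, 11.3% by at least 2-fold. *Cd79b* and *Cd79a*, the signalling chains of the B cell receptor, fell by 1.63 and 1.76 (adjusted p = 0.00743 and 0.00766). *Ms4a1*, which encodes the B cell surface protein CD20, read 9.50, 8.52, 8.36 and 8.57 in PBS and 6.84, 7.54, 6.11 and 5.84 in SP. Its 2 groups did not overlap. *Fcer2a* (0.82, adjusted p = 0.0719) and *Fcrla* (0.25, adjusted p = 0.521) were the 2 genes of the list not called. Without SP replicate 3 *Fcer2a* was called higher (1.07, adjusted p = 0.0189). The part of B cell RNA in the fall of *H2-Ob* was not tested. Beside *H2-Oa*, T cell genes averaged 5.41 to 6.07 in PBS and 5.77 to 6.99 in SP. Of these, 2 of 5 were called higher, as were 21.5% of all rows. *Cd5*, a T cell surface protein, read 5.83, 5.43, 5.59 and 5.36 in PBS and 7.20, 7.67, 6.02 and 6.29 in SP, highest on the same 2 arrays as *H2-Oa*. *Cd3d*, the other called gene, read 4.99, 4.83, 5.14 and 5.10 in PBS and 5.71, 5.67, 6.22 and 5.22 in SP, highest on the array where *H2-Oa* was lowest in SP. *Cd3e*, *Cd3g* and *Lck* were not called, and their SP values were highest on replicates 1 and 2, as for *Cd5*. *Cd3e* read 7.09, 6.04, 6.20 and 6.24 in PBS and 7.34, 7.50, 5.66 and 6.23 in SP (limma adjusted p = 0.580). The call of *Cd5* was lost without PBS replicate 4 (adjusted p = 0.0516) or SP replicate 1 (adjusted p = 0.0565). Their part in the values of *H2-Oa* was not tested.

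**Figure D2:**
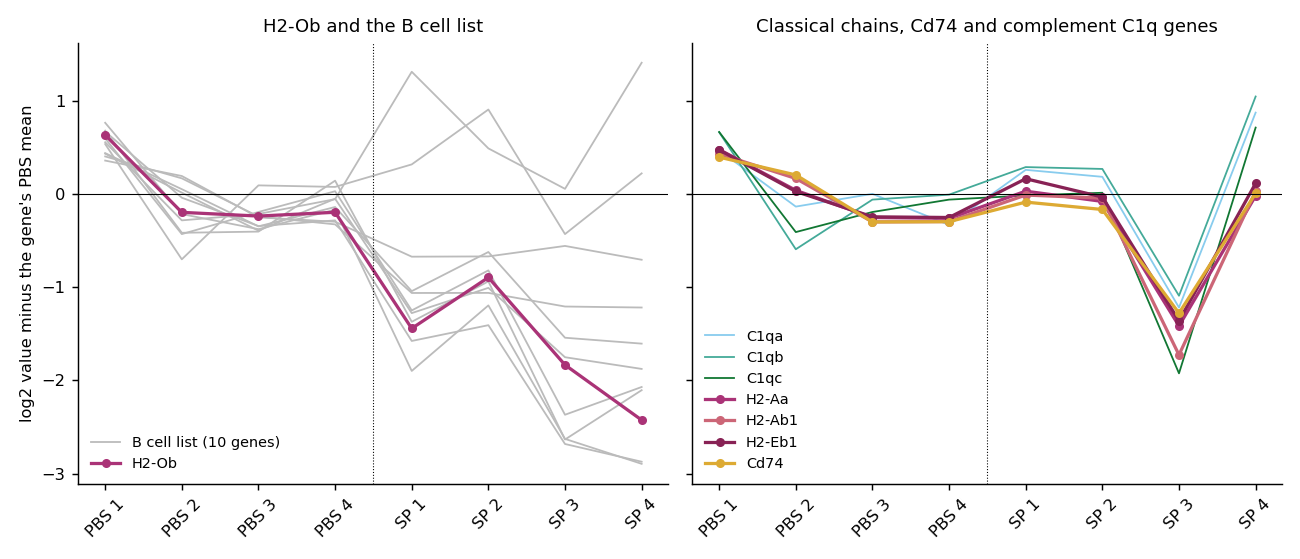
Log2 value minus the gene's PBS mean (y axis) on each of the 8 arrays (x axis), with each line joining the values of 1 gene. Left, *H2-Ob* (bold) with the 10 genes of the B cell list, 8 of which were called lower in SP. Right, the classical chains and *Cd74* (bold) with *C1qa*, *C1qb* and *C1qc*, all of which are lowest on SP replicate 3.

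Markers of the other presenting cells are set here beside the classical chains and *Cd74*. Over all rows 21.5% were called higher and 22.6% lower. Of the macrophage and monocyte list, 4 of 10 genes were called higher and 1 lower, with a mean level of 7.93 to 8.81 in PBS and 7.75 to 9.28 in SP. *C1qa* read 8.77, 8.16, 8.30 and 7.97 in PBS and 8.56, 8.48, 7.08 and 9.17 in SP, so the array that was low for class II was low for it too. *Csf1r*, the macrophage growth factor receptor, was not called (0.73, adjusted p = 0.0547), but was without SP replicate 3 (0.87, adjusted p = 0.0379). Alveolar macrophage genes were lower for 5 of 8, with *Ear2* down by 1.48 (adjusted p = 4.6e-04), and their mean level was 8.77 to 9.55 in PBS and 7.50 to 8.22 in SP. Not called were *Siglecf* (-0.86, adjusted p = 0.0841), *Marco* (-0.16, adjusted p = 0.327) and *Atp6v0d2* (0.03, adjusted p = 0.958). Of 8 conventional dendritic cell genes, 4 were called lower and 1 higher, and the list averaged 5.94 to 6.53 in PBS and 5.31 to 5.52 in SP. *Dpp4*, the brightest and also found on other cells, fell by 2.70 (adjusted p = 1.5e-04) and *Cd209a* by 1.98 (adjusted p = 3.3e-04). *Flt3* (4.34 to 4.94) and *Xcr1* (5.10 to 5.37) stayed below the array medians on all arrays and were not called. *Clec9a* was not called either, and ran from 5.46 to 6.39 in PBS and from 5.23 to 5.89 in SP. *Zbtb46* fell by 0.40 (adjusted p = 0.0489), a call lost without SP replicate 3 (adjusted p = 0.0914). *Batf3* was the gene called higher (0.61, adjusted p = 0.00156). The 4 plasmacytoid dendritic cell genes averaged 5.30 to 5.67 over all arrays, with *Cox6a2* lower by 0.96 and *Siglech* not called (-0.04). Alveolar type 2 cells can also carry class II, and 7 of their 9 genes were lower, *Sftpc* by 0.93 and *Sftpa1* by 0.94 (adjusted p = 0.0375). The call of *Sftpa1* was lost after centring (-0.66, adjusted p = 0.0504), by the methods' test and without any 1 array other than SP replicates 3 and 4. All 6 endothelial genes were lower, *Calcrl* by 1.63 and *Cdh5* by 0.99. The mean level of each list named in this paragraph was lowest on SP replicate 3. That held for alveolar macrophages (7.50), alveolar type 2 cells (9.90) and endothelium (8.42) as well as for the list with *C1qa* (7.75). The part of these cells in the class II values was not tested.

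Of 40 other genes of the pathway, taken from lists by role, 38 were matched to a row. In SP, 17 of them were called higher, 12 by at least 2-fold, and 3 were called lower, 1 of them by at least 2-fold. Their median difference was 0.56, against 0.10 for all rows. Over all rows 21.5% were called higher, 6.37% higher by at least 2-fold, 22.6% lower and 11.3% lower by at least 2-fold. The same shares apply to the lists by role below. The calls were 20 higher and 4 lower without SP replicate 3.

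**Figure D3:**
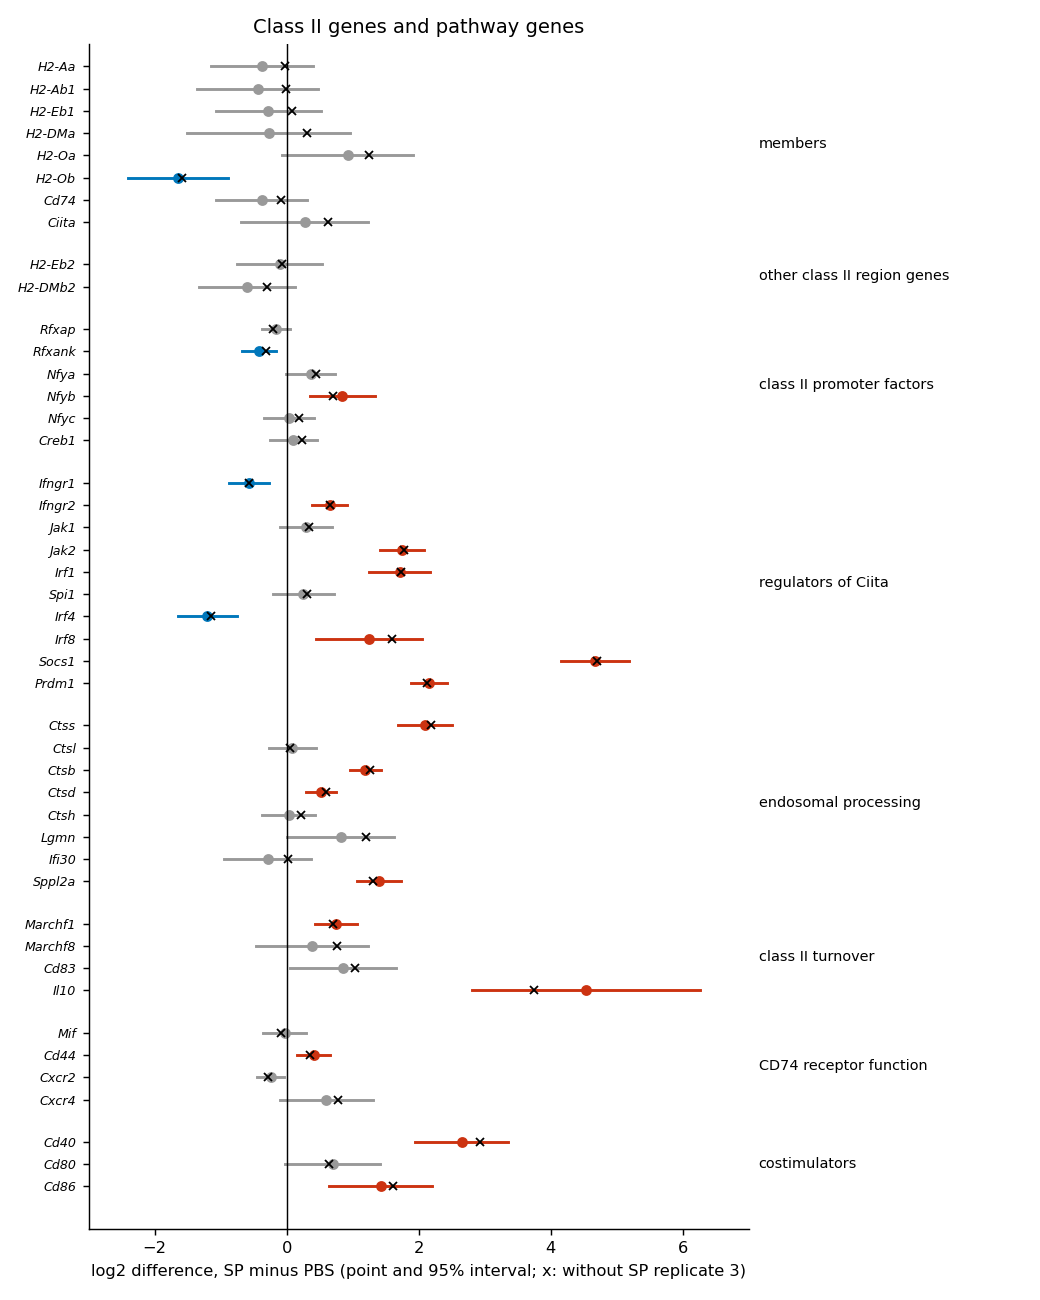
Log2 difference, SP minus PBS (x axis), with its 95% interval for the 8 measured class II genes and genes of the pathway lists, grouped by role; red is called higher, blue called lower and grey not called (limma adjusted p at most 0.05), and a black cross is the difference without SP replicate 3. The intervals of 7 class II genes cross 0, while regulators such as *Socs1* (4.67) and *Jak2* (1.74) and the protease *Ctss* (2.09) lie well above it.

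Upstream of *Ciita*, 7 of 11 regulators were called higher and 2 lower. *Jak2*, the kinase of the receptor chain IFNGR2, read 10.25, 9.93, 10.52 and 10.49 in PBS and 12.15, 12.19, 11.91 and 11.90 in SP, with no overlap (log2 difference 1.74, limma adjusted p = 5.3e-05). *Irf1*, which acts at the *Ciita* promoter, rose by 1.71 (adjusted p = 2.9e-04). *Irf8* rose by 1.25 (adjusted p = 0.0218), a call that was lost by the methods' test (adjusted p = 0.0533) and without PBS replicate 3 or 4 or SP replicate 1 or 2 (adjusted p = 0.053 to 0.0592). Of the receptor itself, *Ifngr2* rose by 0.65 and *Ifngr1* fell by 0.57. The fall of *Ifngr1* was not called after centring (-0.29, adjusted p = 0.114). Known brakes rose too. *Socs1*, an inhibitor of JAK signalling, went from 5.51 to 6.44 in PBS up to 10.57 to 11.17 in SP, 25.5-fold higher (log2 difference 4.67, adjusted p = 4.8e-06). *Prdm1*, which encodes BLIMP-1, a repressor of *Ciita* in plasma cells, rose by 2.16 (adjusted p = 8.8e-06). *Irf4* fell by 1.20 (adjusted p = 0.00156). *Jak1* (0.29) and *Spi1* (0.25), which encodes the myeloid factor PU.1, were not called. Tested against *H2-Ab1* on the same arrays, *Irf1* shifted by 2.15, with an exact permutation p of 0.0286. It was picked for the test after its values were seen.

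Of 6 measured genes for the factors that bind class II promoters with CIITA, 1 was called higher and 1 lower, beside 21.5% and 22.6% of all rows. *Nfyb*, a subunit of the Y box factor NF-Y, rose by 0.84 (limma adjusted p = 0.0135) and *Rfxank*, a subunit of the X box factor RFX, fell by 0.42 (adjusted p = 0.0174). *Rfxank* was not called after centring (-0.14, adjusted p = 0.270), after quantile normalization again (-0.0461, adjusted p = 0.572) or without PBS replicate 1 (adjusted p = 0.0508). *Rfxap* (-0.16), *Nfya* (0.36), *Nfyc* (0.04) and *Creb1* (0.10) were not called, and *Rfx5* was not matched to a row.

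Of 8 endosomal genes, 4 were called higher and none lower. *Ctss* encodes cathepsin S, which makes the last cuts in the invariant chain of most presenting cells. It read 10.57, 9.75, 10.09 and 10.14 in PBS and 12.33, 12.44, 11.94 and 12.21 in SP, with no overlap, and was 4.26-fold higher (log2 difference 2.09, limma adjusted p = 5.9e-05). Against *H2-Ab1* it shifted by 2.53 (exact permutation test, p = 0.0286, chosen after values were seen). *Sppl2a*, the membrane protease that clears the remaining CD74 stub, rose by 1.40 (adjusted p = 1.7e-04), *Ctsb* by 1.19 (adjusted p = 5.5e-05) and *Ctsd* by 0.52 (adjusted p = 0.00367). *Ctsl* (0.08) and *Ctsh* (0.03) were not called, although *Ctsh* was called higher without SP replicate 3 (0.22, adjusted p = 0.0438). *Lgmn*, an asparagine-specific protease, read 10.48, 10.36, 10.08 and 10.09 in PBS and 11.45, 11.29, 9.90 and 11.64 in SP. It was not called over all arrays (0.82, adjusted p = 0.0886) and was called without SP replicate 3 (1.21, adjusted p = 4.1e-04). *Ifi30*, the disulfide reductase GILT, had the same low SP replicate 3 as the classical chains (10.84, 10.92, 9.78 and 11.22 in SP, 10.80 to 11.30 in PBS) and was not called (-0.29, adjusted p = 0.412).

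Genes that set how long class II stays at the surface also included rises. *Marchf1*, the ubiquitin ligase that removes class II dimers, rose by 0.75 (limma adjusted p = 0.00295). *Il10*, a cytokine that raises *Marchf1* in myeloid cells, read 5.19, 4.86, 5.36 and 5.65 in PBS and 9.13, 8.09, 12.18 and 9.79 in SP (log2 difference 4.53, adjusted p = 0.00175). It was highest on SP replicate 3, the one lowest for the classical chains. Without that array the rise was 3.74. *Marchf1* read 9.76, 9.50, 9.74 and 9.43 in SP. A link of *Il10* or *Marchf1* to the class II values was not tested. *Cd83*, which opposes MARCHF1, was not called (0.85, adjusted p = 0.0778) except with array weights or centring (adjusted p = 0.0222 and 0.0152). *Marchf8* was not called (0.38), but was without SP replicate 3 (0.76, adjusted p = 0.0229). Of the genes tied to CD74 as a receptor, *Cd44*, its signalling partner, rose by 0.41 (adjusted p = 0.0165), a call lost after quantile normalization again (0.16, adjusted p = 0.171) and without PBS replicate 1 (adjusted p = 0.0503), whereas *Mif* (-0.03), *Cxcr2* (-0.24) and *Cxcr4* (0.60) were not called. *Cxcr4* was called with centring (0.88, adjusted p = 0.0259) and with array weights (0.55, adjusted p = 0.0472). Without SP replicate 3 *Cxcr2* was called lower (-0.28, adjusted p = 0.0383). The costimulators that accompany presentation to T cells were called higher for *Cd40* (2.65, adjusted p = 2.6e-04) and *Cd86* (1.43, adjusted p = 0.0105), and not for *Cd80* (0.69, adjusted p = 0.102).

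The class II genes of mouse chromosome 17 are interleaved with genes of the class I pathway. In the RefSeq order from *H2-Oa* to *H2-Eb2* there are 14 protein-coding genes, 13 of them matched to a row, and this view was added after the values were seen. The 5 genes that are not class II genes were all called higher by at least 2-fold. *Tap1* and *Tap2*, which together pump peptides into the endoplasmic reticulum for class I, were 6.38-fold and 5.05-fold higher (limma adjusted p = 5.8e-05 and 5.7e-05). *Psmb8* and *Psmb9*, subunits of the immunoproteasome, were 7.83-fold and 4.01-fold higher (adjusted p = 7.8e-06 and 7.2e-04). *Brd2*, a chromatin reader, was 2.66-fold higher (adjusted p = 7.5e-06). *H2-Ob*, the next gene after *Tap2* in this order, fell, and *H2-Ab1*, *H2-Aa*, *H2-Eb1* and *H2-Eb2* beyond it were not called. *Tap1* read 10.17, 9.02, 9.90 and 9.81 in PBS and 12.47, 12.55, 12.37 and 12.19 in SP, so SP replicate 3 was not low for it. Its shift against *H2-Ab1* was 3.11 (exact permutation test, p = 0.0286, chosen after values were seen).

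**Figure D4:**
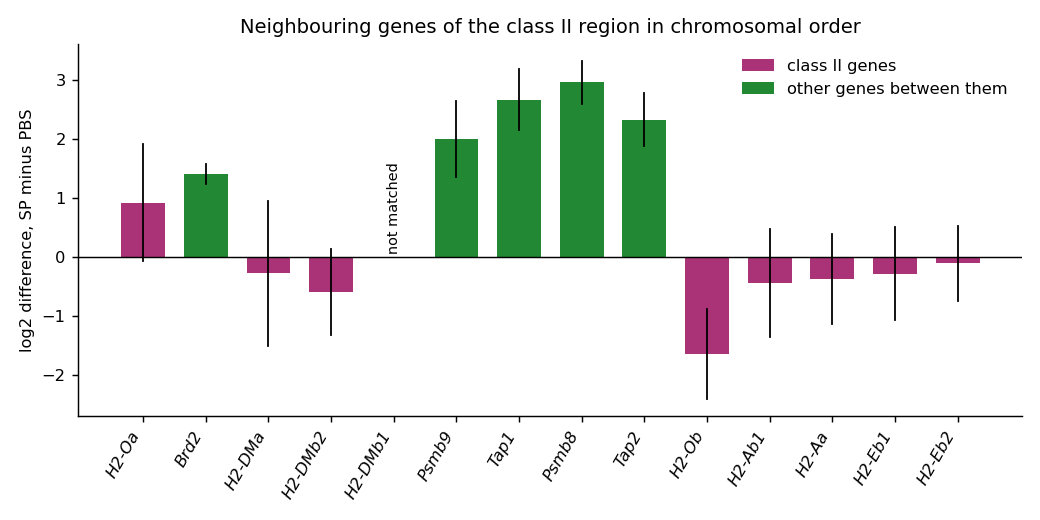
Log2 difference, SP minus PBS (y axis, bars from 0, lines are 95% intervals), for 14 neighbouring protein-coding genes in their order on the chromosome (x axis, not to distance). The 5 genes outside class II (green) were all higher in SP by 1.41 to 2.97 log2 units, while of the class II genes (purple) *H2-Ob* alone has an interval that excludes 0; *H2-DMb1* was not matched to a row.

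Likeness between genes was measured as the root mean square difference of their log2 values after each gene was centred on its mean over the 8 arrays. From *H2-Ab1* the distance was 0.12 to *H2-Aa*, 0.14 to *H2-Eb1*, 0.16 to *Cd74*, 0.30 to *H2-DMa* and 0.45 to *Ciita*. It was 0.86 to *H2-Oa* and 0.87 to *H2-Ob*, above the median of 0.68 over all named rows. Without SP replicate 3 the distance was 0.0618 to *H2-Aa*, 0.0875 to *H2-Eb1*, 0.0491 to *Cd74*, 0.28 to *H2-DMa* and 0.42 to *Ciita*, where the median over named rows was 0.33. The classical chains and *Cd74* were thus close to one another on either set of arrays, and *H2-Oa* (0.82) and *H2-Ob* (0.91) stayed above the median. The 5 nearest rows other than class II genes included *Serpinb9* (0.16), an inhibitor of granzyme B, *Ncbp2* (0.17), *Cmtm3* (0.17) and *Nfs1* (0.18). For *Ciita* they were *Reps2* (0.24), *Piezo1* (0.25), *Vwf* (0.26), *Clic5* (0.26) and *Gm4759* (0.27), and its distance to *H2-Eb1*, the nearest class II gene, was 0.39. These neighbours rest on few arrays. Without SP replicate 3, 0 of the 5 nearest rows of either gene were the same.

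**Figure D5:**
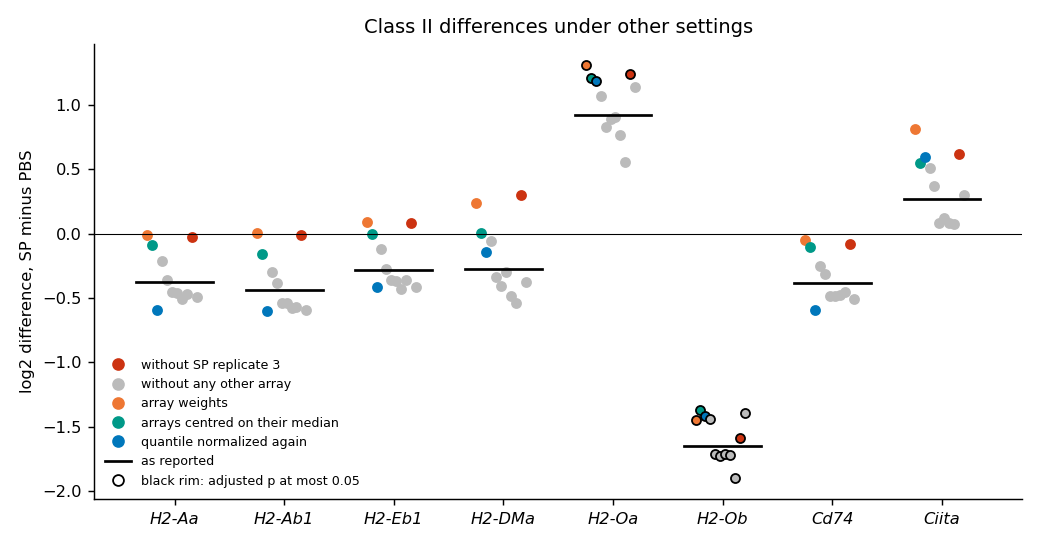
Log2 difference, SP minus PBS (y axis), of each measured class II gene with all arrays (black line), with 1 array left out, with array weights and under both scalings (points); a black rim marks an adjusted p of at most 0.05. *H2-Ob* keeps its rim in all points shown (-1.90 to -1.37), *H2-Oa* gains one in 4, and *H2-Ab1*, *H2-Eb1* and *H2-DMa* have points on both sides of 0.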

How the data were processed

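The deposited values were log2 signals of 8 arrays. Per the study's methods the authors made them by RMA (background, GC content and sequence correction, quantile normalization, median polish per gene), and the processing notes name Affymetrix Expression Console, RMA and Partek. Quantile normalization makes values relative within an array, so a change in total RNA per cell cannot be read from them. The number of arrays limits the precision. Rows were named through RefSeq accessions (GRCm38.p6): 19915 of 24625 rows (80.9%) received a symbol, and the brightest row stood for a gene. All rows were fitted with limma 3.58.1 (lmFit and eBayes, R 4.3.3), two-sided, without covariates, and p-values were adjusted over all rows by the Benjamini-Hochberg method. Differences between 2 genes on the same array were compared by exact permutation, with 4 planned and 5 added comparisons, adjusted within each family. The fit was tested on simulated data with 200 changed rows of 24625, of which 166 were recovered with 14 false calls. The simulated noise was independent between rows and arrays, and far fewer rows were changed than were called in the real data. These counts therefore do not give the error rate of the fit on the real data.

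The members and lists were chosen with earlier results of these data known. Named genes were all members, pathway genes called at 2-fold or the 2 with the largest difference in a list, the 2 brightest genes of each marker list, and the 5 rows most like *H2-Ab1* and *Ciita*. The remaining pathway and marker genes, the region order and the AGCAAC core were named after their values or letters were seen. The labels do not say whether replicate numbers pair the samples, and the main fit did not pair them. Deviations of same-numbered samples correlated at 0.02, 0.03, 0.35 and -0.27 (r over rows, which are not independent replicates). In 17 alternative settings the methods' test, an intensity trend, limma treat, a replicate block, array weights, both scalings, filters on dim or repeated rows and each array left out were tried. MicroRNA arrays were not analysed here, and some genes counted in the lists and comparisons are not reported here by name.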

Additional observations from a re-analysis of the deposited data

Results flagged for a closer look

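Of 48 groups of 4 values checked for a sample far from the others (8 class II genes and 16 list means in each condition), 10 had one, where chance alone flags about 1 in 20. SP replicate 3 was far below the other SP arrays for *H2-Aa* (10.29, others 11.63 to 11.73), *H2-Ab1* (9.46, others 11.14 to 11.21), *H2-Eb1* (9.36, others 10.69 to 10.89) and *Cd74* (10.53, others 11.64 to 11.82). The same array was low in the mean level of the costimulators (10.03, others 10.56 to 10.62) and of the conventional dendritic cell genes (5.31, others 5.51 to 5.52). PBS replicate 1 was high for *H2-Ob* (9.64, others 8.77 to 8.81). PBS replicate 2 was low in the mean level of the regulators of *Ciita* (9.38, others 9.88 to 9.95) and of the costimulators (8.28, others 9.02 to 9.09), and high in that of the alveolar type 2 cell genes (12.15, others 11.61 to 11.68).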

How the results depend on the processing

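*H2-Aa*, *Cd74* and *Ciita* kept their direction and stayed uncalled in all 17 alternatives. *H2-Ob* was called in 16 of 17, and lost under limma treat (-1.65, adjusted p = 0.416), which called 0 class II genes and 1572 rows, all past 2-fold. Class II genes called were 2 with array weights, with centred arrays and with quantile normalization again, because *H2-Oa* joined (1.31, 1.21 and 1.19). Signs turned with array weights for *H2-Ab1* (0.0026), *H2-Eb1* (0.092), *H2-DMa* (0.24) and *H2-Eb2* (0.0864), with centring for *H2-Eb1* (0.0015), *H2-DMa* (0.0067), *H2-Eb2* (0.17) and *Siglech* (0.24), and with quantile normalization again for *H2-Eb2* (0.0396). Centring called 18255 rows, and the methods' test 10244, of which 4157 passed 2-fold. List medians moved with array weights to 1.58 (regulators of *Ciita*) and 0.89 (endosomal), and with centring to 0.35 (promoter factors), 1.53 (regulators), 0.95 (endosomal), 1.08 (turnover), 0.47 (CD74 receptor function), -0.0881 (conventional dendritic cells) and 0.33 (plasmacytoid dendritic cells). Quantile normalization again gave -0.0301 for CD74 receptor function, and leaving out dim rows 1.48 (regulators), -2.34 (conventional) and -0.96 (plasmacytoid dendritic cells), over fewer genes. With 1 array left out, class II calls ranged from 1 to 2, *H2-Eb1* from -0.43 to 0.081, *H2-DMa* from -0.54 to 0.30, *H2-Oa* from 0.56 to 1.24, *H2-Eb2* from -0.27 to 0.11, and the shift of *Cd74* against *H2-Ab1* from -0.073 to 0.12. Medians then ranged from -0.0411 to 0.21 (promoter factors), 1.06 to 1.59 (regulators), 0.58 to 0.90 (endosomal) and 0.59 to 0.92 (turnover). *Ifi30* ranged from -0.47 to 0.0129, the latter without SP replicate 3. With the replicate block, 9842 rows and 1 of the 8 class II genes were called, against 10860 and 1 without it, and *H2-DMb2*, outside those 8, was called too (-0.60, adjusted p = 0.0385). The cause of these shifts was not tested.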
